A study of Mus musculus with 68 samples.

Results

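Collagens, the other structural proteins of the extracellular matrix, and the enzymes that mature or degrade them were followed through the uterine response to estradiol (E2) and insulin-like growth factor 1 (IGF1). The module lists 43 genes in 8 roles, and each gene was read from the probe set annotated to its symbol alone. Where a gene had more than 1 such probe set, the brightest on average across the 68 arrays stood for it. This gave 41 genes of the 30142 that were tested. Loxl2 is carried only on a probe set with several symbols and Fbn1 has no probe set in the annotation used here, so both are without a value.

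RNA came from the uterus of ovariectomized C57Bl6 mice and was measured on 68 Affymetrix arrays in 25 groups, 18 of 3 arrays and 7 of 2. In the groups of 2 the submitters had dropped an array after a principal component analysis, so the spread between arrays may be understated there. Mice received saline vehicle, 250 ng of E2 intraperitoneally, or IGF1, either as 50 ug by injection or from an implanted osmotic pump; the labels do not say which mice had which. Uteri were taken after 2 h or 24 h, but vehicle only after 24 h, so a 2 h comparison with vehicle also spans a difference in time. The arrays form 3 mouse sets, each with its own vehicle arrays: C57Bl6 wild types (the C57 set); Ex3aERKO mice, which are null for Esr1, the gene of estrogen receptor alpha, with wild-type littermates; and ERaUtcKO mice, Esr1f/f;PgrCre+, with wild-type littermates. In ERaUtcKO mice the floxed Esr1 is removed by Cre expressed from the Pgr promoter, that is, where the progesterone receptor gene is active, and other cells keep it. All mice of all groups lacked ovaries, and their ages are not given in the sources used here. Nothing in the labels ties the arrays of a group to separate animals beyond the replicate number, so p-values cover just the variation among the arrays as labelled, which may be technical. In whole uterus, fewer cells of a type and less RNA per cell cannot be told apart.

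Fibrillar collagens are secreted as procollagens whose chains are hydroxylated on proline and lysine in the endoplasmic reticulum, trimmed outside the cell and cross-linked by lysyl oxidases into fibres. Proteoglycans and glycoproteins bind these fibres and set their spacing, and metalloproteinases cut them under the control of the tissue inhibitors of metalloproteinases. The uterus rebuilds this matrix in every estrous cycle and in pregnancy, and estrogen acting on an ovariectomized uterus brings on water uptake, cell division and growth. IGF1 is a growth factor that uterine stroma makes in response to estrogen and that signals through its own receptor tyrosine kinase.

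Values are log2 intensities as deposited, in which 1 unit is a 2-fold difference, and they are compared within a mouse set or with the set as a term of the model. Array medians over all genes ran from 6.93 to 7.10 in the C57 set, from 6.17 to 6.33 in the Ex3aERKO set and from 6.59 to 6.80 in the ERaUtcKO set, so levels are not set against each other across sets. A gene is called higher or lower at an adjusted p under 0.05 (limma, Benjamini-Hochberg over the 30142 genes). Esr1 measured 12.43 and 12.73 on the littermate vehicle arrays against 10.29 and 10.08 in Ex3aERKO (-2.39 ± 0.19 SE, adjusted p = 1.8e-06). It measured 12.17, 12.25 and 12.24 against 11.09, 11.10 and 10.86 in ERaUtcKO (-1.21 ± 0.11, adjusted p = 3.66e-07), so the probe set was lower but above the control probe sets, whose medians were 3.45 and 3.65, in both lines. In wild types Esr1 changed by -0.65 at 2 h and -0.27 at 24 h of E2 and by -0.45 at 2 h of IGF1, and was not called at 24 h of IGF1 (-0.17). Smooth muscle markers averaged from 12.78 to 16.65 on the 68 arrays, stromal markers from 8.51 to 12.49 and epithelial markers from 9.96 to 12.74, so the 3 main uterine tissues were represented on every array. Adipocyte markers averaged from 9.48 to 10.73 at 2 h of E2 in ERaUtcKO, against 7.18 to 9.42 under vehicle. In Ex3aERKO at 2 h of IGF1 they averaged from 10.13 to 10.68, against 7.41 to 9.72. At 2 h of E2 they ran from 7.25 to 10.95 in ERaUtcKO littermates, against 7.33 to 8.42 under vehicle. In the C57 set they ran from 6.52 to 7.24, against 6.62 to 9.04. The part of adipocyte markers in the results was not tested. Markers of liver averaged from 10.45 to 12.32 on the C57 vehicle arrays and from 8.52 to 10.27 at 2 h of E2 and from 7.01 to 7.67 on the other C57 arrays. In the ERaUtcKO set they averaged from 7.42 to 9.92 on littermate and from 8.54 to 11.32 on knockout vehicle arrays, against 6.60 to 6.84 and 7.69 to 7.94 at 24 h of E2, and in the Ex3aERKO set from 5.31 to 5.72 throughout; the part of these markers in the results was not tested. ERaUtcKO replicate 3 at 2 h of IGF1 stood apart: its mean over the 41 genes was 0.86 above littermate vehicle, against 0.10 and 0.22 on the other arrays of the group. Several responses of this group are given with and without it. The interactions that use this group, and the count of wild-type calls shared with it, are given with that array only.

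The start regions of 5 genes are shown because these genes moved furthest in opposite directions 2 h after E2: Col1a2 and Col3a1 downward, P4ha2, Plod1 and Col6a3 upward. Each sequence runs from position -150 to -10 relative to the RefSeq start, 5′ to 3′ on the gene's strand, in build GRCm38.p6; capitals mark the searched motifs described after them. The regions are chr6:4505468-4505608 for Col1a2, chr1:45311388-45311528 for Col3a1, chr1:90843981-90844121 for Col6a3 (minus strand), chr11:54100774-54100914 for P4ha2 and chr4:147936786-147936926 for Plod1 (minus strand).
Col1a2: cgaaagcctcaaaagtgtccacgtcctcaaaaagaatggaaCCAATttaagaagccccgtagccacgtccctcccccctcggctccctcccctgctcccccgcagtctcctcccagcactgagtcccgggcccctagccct
Col3a1: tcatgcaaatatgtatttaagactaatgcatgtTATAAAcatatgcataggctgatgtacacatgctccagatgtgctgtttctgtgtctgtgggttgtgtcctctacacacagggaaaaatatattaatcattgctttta
P4ha2: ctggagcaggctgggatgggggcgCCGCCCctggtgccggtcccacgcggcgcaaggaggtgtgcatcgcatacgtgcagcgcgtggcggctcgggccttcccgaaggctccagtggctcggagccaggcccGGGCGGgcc
Plod1: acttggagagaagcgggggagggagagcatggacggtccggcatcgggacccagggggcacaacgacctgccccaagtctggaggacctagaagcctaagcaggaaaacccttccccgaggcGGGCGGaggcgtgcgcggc
Col6a3: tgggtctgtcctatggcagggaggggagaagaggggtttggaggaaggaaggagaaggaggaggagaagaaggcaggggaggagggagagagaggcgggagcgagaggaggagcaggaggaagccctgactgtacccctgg
Col1a2 carries a CCAAT box in this stretch, Col3a1 a TATA box that begins at -117, P4ha2 a GC box on each strand and Plod1 a GC box near its end. Col6a3 holds none of the motifs searched in this stretch.

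RefSeq promoters (the stretch around each start, read on both strands, where a base may count in more than 1 motif) were found for 29 of the 41 genes, 33 promoters in all. The GC box GGGCGG was present in 24 of the 33 promoters, those of 22 genes, and in 35.7% of all 32851 promoters. The CCAAT box CCAAT was present in 12 of the 33, those of 12 genes (37.4% of all promoters). The TATA box TATAAA was present in 7 of the 33 (13.6% of all promoters), those of 6 genes: Col3a1, Mmp3, P4ha1, Plod1, Postn and Tnc. TGANTCA, the AP-1 site, was present in 2 of the 33, those of Col6a1 and Mmp3 (7.81% of all promoters). GTAAACA, a FOXO site, was present in 1, that of Col6a1 (3.65% of all promoters). The full palindrome of the estrogen response element (GGTCA and TGACC with 3 bases between) was in no promoter of the 29 genes and in 0.07% of all. These are matches of letters in a short window, not sites of binding.

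In wild types the matrix genes fell and rose in nearly equal number 2 h after E2 and mostly rose by 24 h. After E2 for 2 h, 12 of 41 were higher and 16 lower, where 40.0% of all genes were called (17.2% higher, 22.8% lower), with a median difference of -0.15 over the members and -0.05 over all genes. After E2 for 24 h, 28 were higher and 7 lower, where 56.2% of all genes were called (24.5% higher, 31.7% lower), with medians of 0.75 and -0.07. IGF1 for 2 h gave 20 higher and 8 lower (35.9% of all genes called, 16.9% higher and 19.0% lower, medians 0.27 and -0.04). IGF1 for 24 h gave 31 higher and 5 lower (40.9% of all genes called, 19.3% higher and 21.6% lower, medians 0.63 and -0.06). These 4 comparisons share the vehicle arrays, so their values are given side by side and not set against each other as independent results. The direction of the difference was the same in all 3 mouse sets for 34, 35, 34 and 36 of the 41 genes respectively. The map of responses shows these comparisons gene by gene.

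**Figure D1:**
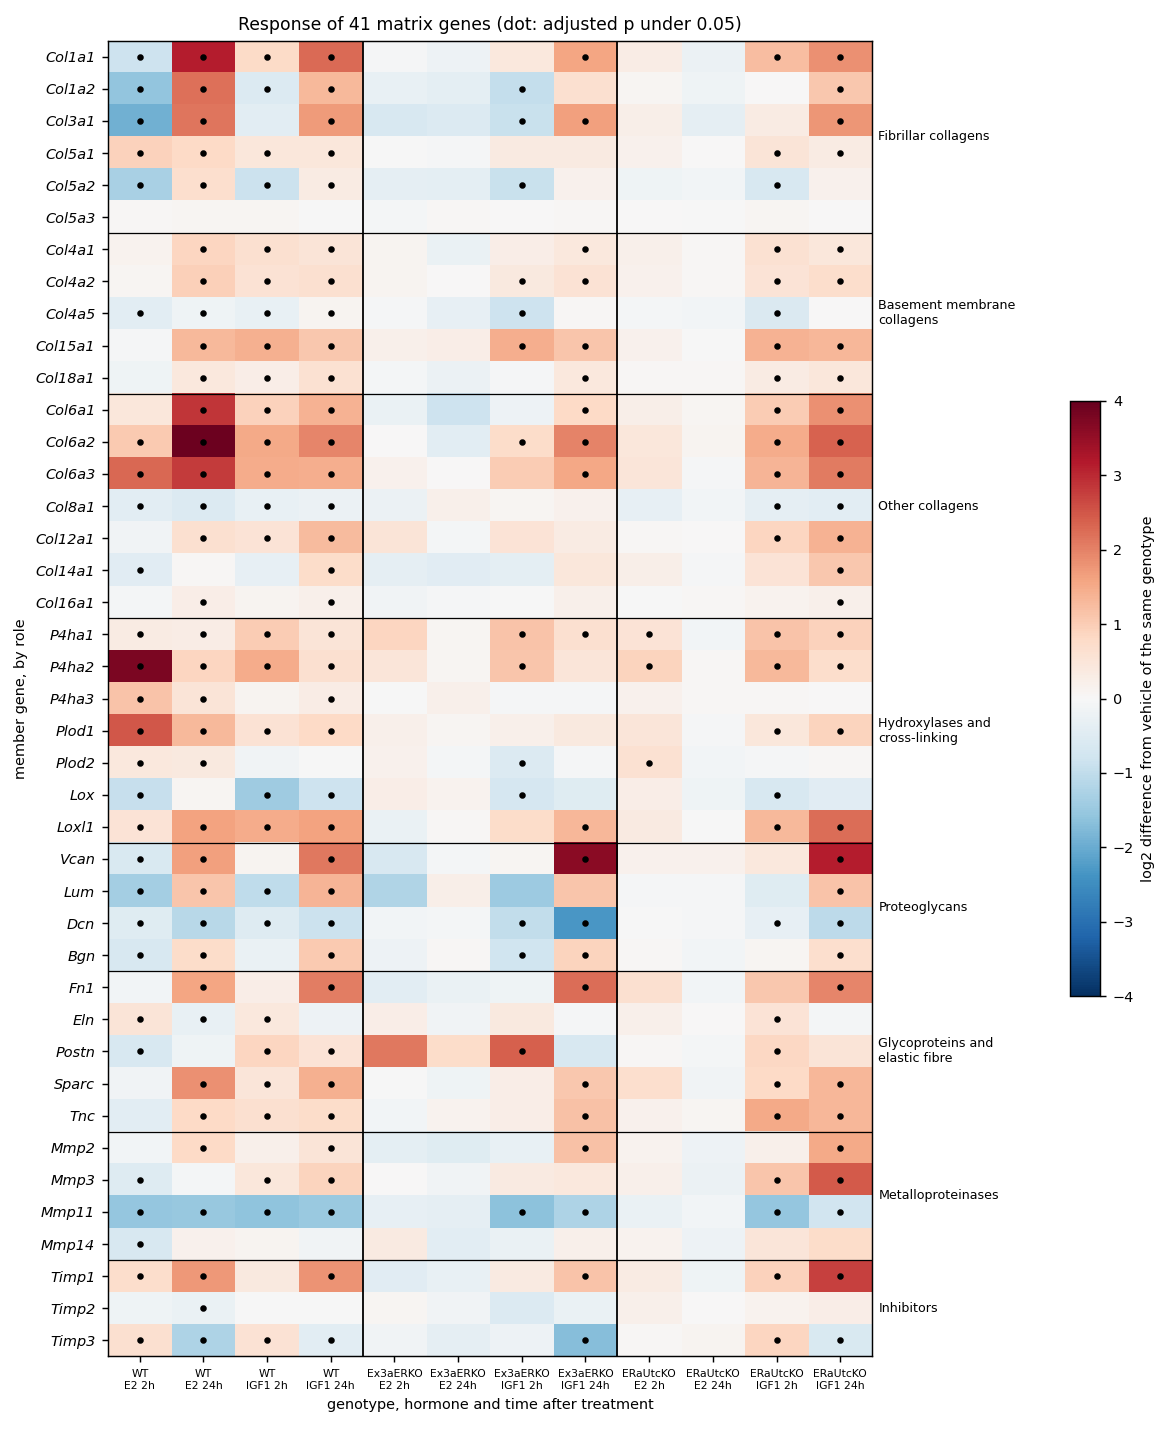
Log2 difference from vehicle (colour, from -4 to 4) for the 41 genes in rows, ordered by role, under E2 and IGF1 at 2 h and 24 h in wild types (42 arrays of 3 sets), Ex3aERKO and ERaUtcKO in columns; a dot marks an adjusted p under 0.05. The E2 columns hold 28 and 35 dots in wild types, none in Ex3aERKO, and 3 and none in ERaUtcKO, while the IGF1 24 h columns hold 36, 21 and 31.

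Among the 6 fibrillar collagen genes, whose products form the tensile fibres of the tissue, 4 fell and 1 rose 2 h after E2, and 5 rose and none fell at 24 h. Col1a1, the main chain of type I collagen, measured 13.29, 12.35 and 12.27 on the C57 vehicle arrays, 10.85, 11.32 and 12.61 after E2 for 2 h and 15.72, 15.76 and 15.52 after E2 for 24 h. It measured 13.49 and 13.23 after IGF1 for 2 h and 15.02, 15.32 and 14.85 after IGF1 for 24 h. Both 24 h groups lay wholly above vehicle, whereas the 2 h groups overlapped it. Over the 3 sets Col1a1 fell by 0.82 ± 0.18 at 2 h of E2 (adjusted p = 0.000188) and was 3.13 ± 0.18 higher at 24 h (adjusted p = 4.75e-18). With IGF1 it was 0.77 ± 0.19 higher at 2 h (adjusted p = 0.00107) and 2.25 ± 0.18 higher at 24 h (adjusted p = 7.37e-13).

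Col3a1, the chain of type III collagen that forms thin fibres with type I, measured 13.75, 13.11 and 13.06 under vehicle in the C57 set, 10.91, 11.51 and 12.55 at 2 h of E2 and from 15 to 15.14 at 24 h, with a median of 15.03. After IGF1 it measured 13.05 and 12.83 at 2 h and 14.77, 15.18 and 14.36 at 24 h. The E2 2 h arrays thus lay below vehicle without overlap and the 24 h arrays of both hormones above it. The pooled differences were -1.91 ± 0.19 and 2.14 ± 0.19 for E2 (adjusted p = 4.48e-11 and 1.6e-12), and -0.42 ± 0.20 (adjusted p = 0.115) and 1.71 ± 0.19 (adjusted p = 2.13e-09) for IGF1. Col1a2, the second chain of type I collagen, measured 13.85, 13.44 and 13.35 under vehicle, 11.59, 11.89 and 12.82 at 2 h of E2 and 15.35, 15.42 and 15.27 at 24 h. Its pooled differences were -1.58 ± 0.14 and 2.20 ± 0.14 for E2, and -0.54 ± 0.15 and 1.31 ± 0.14 for IGF1, all called. Col5a2, a chain of the type V collagen that nucleates type I fibres, fell by 1.30 ± 0.08 at 2 h of E2 and by 0.86 ± 0.09 at 2 h of IGF1, and was 0.66 ± 0.08 and 0.32 ± 0.08 higher at 24 h. Col5a1, its partner chain, was higher in all 4 comparisons, by 0.91 ± 0.07 and 0.81 ± 0.07 with E2 and by 0.45 ± 0.07 and 0.47 ± 0.07 with IGF1. Col5a3 was called in none of them and lay between -0.02 and 0.08. The markers of uterine stroma measured beside these genes were Hand2, Nr2f2, Hoxa10, Hoxa11 and Vim, and all 5 fell at 2 h of E2 (median -1.81), from averages of 12.04 to 12.25 under vehicle to 10.20 to 10.27 in the C57 set, while 2 rose and 1 fell at 24 h of E2; the part of the stromal markers in the collagen result was not tested.

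**Figure D2:**
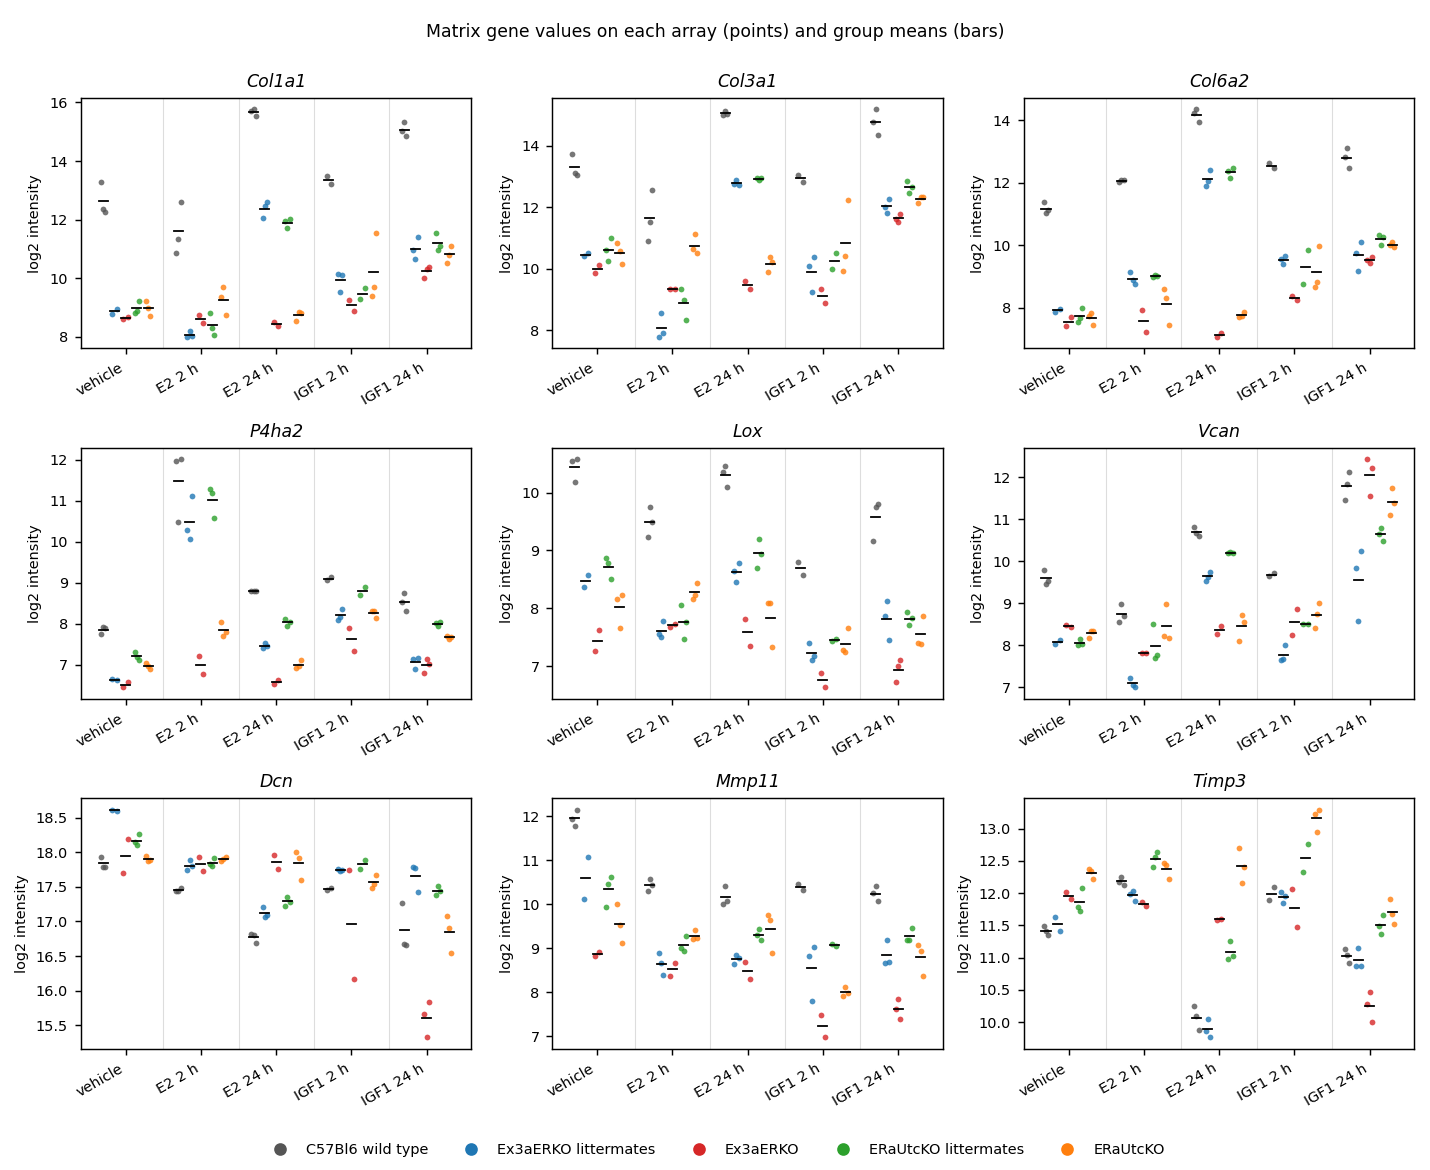
Log2 intensity of 9 genes on every array (points) with group means (bars) under vehicle, E2 and IGF1 at 2 h and 24 h, coloured by genotype; levels are comparable within a mouse set only. Col1a1 and Col6a2 after E2 for 24 h lie above vehicle in all 3 wild-type groups. In Ex3aERKO they lie slightly below the vehicle arrays, neither called, and in ERaUtcKO they overlap them. Mmp11 lies below vehicle in every treated wild-type group.

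The 5 basement membrane collagens, which form sheets under epithelium and around vessels and muscle cells, rose mostly at 24 h of either hormone (4 of 5 with E2, 5 of 5 with IGF1) and at 2 h of IGF1 (4 of 5). At 2 h of E2 only Col4a5 was called, lower by 0.43 on the log2 scale (-0.43 ± 0.04); at 2 h of IGF1 4 were higher and Col4a5 again lower (-0.30 ± 0.04). Col15a1, which links basement membranes to the fibres beneath, measured 9.82, 9.50 and 9.36 under vehicle in the C57 set, 9.16, 9.24 and 9.37 at 2 h of E2 and 11.02 and 10.75 at 2 h of IGF1. The IGF1 arrays lay above vehicle and above the E2 arrays without overlap. Pooled over sets, Col15a1 differed by -0.03 ± 0.11 at 2 h of E2 and by 1.41 ± 0.12 at 2 h of IGF1 (adjusted p = 2.24e-12), and by 1.31 ± 0.11 and 1.07 ± 0.11 at 24 h. In the direct comparison at 2 h, all 5 were called lower after E2 than after IGF1: Col4a1 (-0.51), Col4a2 (-0.49), Col15a1 (-1.44), Col18a1 (-0.42) and Col4a5 (-0.12). Col4a5 lost its call without any of 4 single arrays (adjusted p up to 0.0825, without Ex3aERKO littermate IGF1 2 h replicate 3). Col4a1 and Col4a2, the 2 chains of the common type IV collagen, were not called at 2 h of E2 (0.14 ± 0.07 and 0.09 ± 0.08) and rose by 0.87 ± 0.07 and 0.96 ± 0.08 at 24 h of E2, 0.65 ± 0.08 and 0.58 ± 0.08 at 2 h of IGF1, and 0.51 ± 0.07 and 0.64 ± 0.08 at 24 h of IGF1. Col18a1 rose by 0.41 ± 0.08 and 0.61 ± 0.08 at 24 h of E2 and IGF1, and its call at 2 h of IGF1 (0.25 ± 0.08) was lost without C57 IGF1 2 h replicate 1 (adjusted p = 0.0527). Col4a5 at 24 h of IGF1 (0.09 ± 0.04, adjusted p = 0.0481) lost its call without any 1 of 24 arrays, with adjusted p up to 0.103.

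At 24 h of E2 the 4 largest rises of the module were those of Col1a1 and of the 3 type VI collagen genes. Col6a1, Col6a2 and Col6a3 encode the chains of a beaded filament that anchors cells to the surrounding fibres. Col6a2 measured 11.37, 11.03 and 11.12 under vehicle in the C57 set, 12.00, 12.09 and 12.09 at 2 h of E2, 14.24, 14.34 and 13.94 at 24 h of E2, 12.61 and 12.46 at 2 h of IGF1 and 12.83, 13.10 and 12.47 at 24 h of IGF1. Every treated group lay above vehicle, and the E2 24 h group lay above all others. Its pooled rise was 3.93 ± 0.17 at 24 h of E2 (adjusted p = 2.97e-21) and 1.95 ± 0.17 at 24 h of IGF1 (adjusted p = 9.77e-12), after 1.06 ± 0.17 and 1.53 ± 0.18 at 2 h. Col6a1 differed by 0.45 ± 0.19 at 2 h of E2 (adjusted p = 0.0508) and rose by 2.86 ± 0.19 at 24 h of E2, 0.92 ± 0.20 at 2 h of IGF1 and 1.39 ± 0.19 at 24 h of IGF1.

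Col6a3 measured 11.39, 11.24 and 11.24 under vehicle, 13.36, 13.32 and 13.41 at 2 h of E2 and 13.80, 13.99 and 13.55 at 24 h, with 12.66 and 12.61 at 2 h of IGF1 and 12.78, 13.23 and 12.44 at 24 h. The arrays at 2 h of E2 lay just below those at 24 h and far above vehicle, and the IGF1 arrays lay between. The pooled rises were 2.30 ± 0.16 and 2.81 ± 0.16 with E2 and 1.49 ± 0.17 and 1.45 ± 0.16 with IGF1, each with an adjusted p of 3.18e-09 or smaller. Among the remaining collagens, Col8a1, a network-forming collagen of vessels, fell in all 4 comparisons (from -0.25 ± 0.07 to -0.56 ± 0.07). Col12a1, which decorates fibrils, rose by 0.63 ± 0.15 at 24 h of E2 and by 1.28 ± 0.15 at 24 h of IGF1, and Col14a1, of the same class, differed by 0.06 ± 0.14 and 0.73 ± 0.14, called for IGF1 alone. Col16a1 moved by 0.28 ± 0.06 and 0.22 ± 0.06 at 24 h of E2 and IGF1.

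Genes of collagen hydroxylation led the rises at 2 h of E2. P4ha2, a catalytic subunit of prolyl 4-hydroxylase, measured 7.76, 7.92 and 7.89 on the C57 vehicle arrays, 11.98, 10.49 and 12.00 at 2 h of E2 and 8.79, 8.79 and 8.79 at 24 h. It measured 9.06 and 9.13 at 2 h of IGF1 and 8.52, 8.74 and 8.30 at 24 h. All treated arrays lay above vehicle and the 3 arrays at 2 h of E2 lay far above the rest. The pooled rises were 3.77 ± 0.14 and 0.87 ± 0.14 with E2 (adjusted p = 8.54e-24 and 1.35e-06) and 1.49 ± 0.15 and 0.63 ± 0.14 with IGF1 (adjusted p = 9.66e-11 and 0.000331). Plod1, a lysyl hydroxylase, measured 10.00, 9.81 and 10.07 under vehicle, 12.69, 11.97 and 12.47 at 2 h of E2 and 11.16, 11.30 and 10.99 at 24 h, with 10.42 and 10.35 at 2 h of IGF1 and 10.75, 10.96 and 10.49 at 24 h. With E2 the 2 h level was the higher one, as for P4ha2, whereas with IGF1 the 24 h value was the higher for Plod1 and the 2 h value for P4ha2. Its pooled rises were 2.48 ± 0.10 and 1.29 ± 0.10 with E2 and 0.58 ± 0.11 and 0.78 ± 0.10 with IGF1. P4ha3 rose by 1.13 ± 0.09 and 0.51 ± 0.09 with E2 and, for IGF1, by 0.31 ± 0.09 at 24 h only, with 0.11 ± 0.10 at 2 h not called. P4ha1 differed little under E2 (0.31 ± 0.13 at both times, adjusted p = 0.0484 and 0.04) and lost both calls without single arrays (adjusted p up to 0.126 without Ex3aERKO littermate E2 2 h replicate 2 and up to 0.094 without Ex3aERKO littermate vehicle replicate 3). Under IGF1, P4ha1 rose by 1.03 ± 0.14 and 0.52 ± 0.13.

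The lysyl oxidases, which oxidize lysines to start cross-linking, were split. Lox measured 10.55, 10.19 and 10.57 under vehicle in the C57 set, 9.23, 9.75 and 9.49 at 2 h of E2, 10.36, 10.46 and 10.10 at 24 h of E2, 8.81 and 8.58 at 2 h of IGF1 and 9.16, 9.75 and 9.80 at 24 h of IGF1. The 24 h E2 group overlapped vehicle and the other 3 lay below it. Pooled over sets, Lox fell by 0.93 ± 0.11 at 2 h of E2 (adjusted p = 1.19e-09) and differed by 0.07 ± 0.11 at 24 h (adjusted p = 0.573), while under IGF1 it fell by 1.42 ± 0.11 and 0.82 ± 0.11 (adjusted p = 3.04e-13 and 5.16e-08). Loxl1 instead rose in all 4 comparisons, by 0.53 ± 0.17 and 1.62 ± 0.17 with E2 and by 1.47 ± 0.18 and 1.60 ± 0.17 with IGF1. Of the 7 hydroxylase and cross-linking genes, 6 were higher and 1 lower at 2 h of E2, and 5 higher and 1 lower at 24 h of IGF1, with Lox the lower gene each time.

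Proteoglycan genes all fell at 2 h of E2 and then separated. Vcan, which encodes the large hyaluronan-binding proteoglycan versican, measured 9.78, 9.46 and 9.54 under vehicle in the C57 set, 8.55, 8.98 and 8.69 at 2 h of E2, 10.82, 10.68 and 10.59 at 24 h of E2 and 11.45, 11.82 and 12.11 at 24 h of IGF1. Both 24 h groups lay above vehicle and the 2 h E2 group below it. Pooled, Vcan fell by 0.60 ± 0.17 at 2 h of E2 and rose by 1.64 ± 0.17 at 24 h, with 0.10 ± 0.18 (not called) and 2.12 ± 0.17 for IGF1 (adjusted p = 9.35e-13 at 24 h). Lum, which encodes the fibril-spacing proteoglycan lumican, fell by 1.37 ± 0.20 and 1.03 ± 0.22 at 2 h of E2 and IGF1 and rose by 1.09 ± 0.20 and 1.37 ± 0.20 at 24 h. Bgn, for biglycan, fell by 0.65 ± 0.13 at 2 h of E2 and rose by 0.75 ± 0.13 and 1.05 ± 0.13 at 24 h of E2 and IGF1. Dcn, for decorin, a small proteoglycan that binds type I collagen, measured 17.93, 17.79 and 17.79 under vehicle, 17.44, 17.44 and 17.49 at 2 h of E2, 16.82, 16.80 and 16.69 at 24 h of E2, 17.45 and 17.48 at 2 h of IGF1 and 17.27, 16.68 and 16.67 at 24 h of IGF1. Every treated C57 array was below every vehicle array. The pooled differences were -0.47 ± 0.08 and -1.11 ± 0.08 for E2, and -0.51 ± 0.08 and -0.85 ± 0.08 for IGF1.

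Of the glycoproteins, Fn1, for fibronectin, which cells bind through integrins, measured 15.24, 14.82 and 14.92 under vehicle in the C57 set, 14.25, 14.71 and 14.88 at 2 h of E2, 15.66, 15.85 and 15.61 at 24 h of E2 and 16.34, 16.43 and 16.38 at 24 h of IGF1. Both 24 h groups were above vehicle. The pooled differences were -0.10 ± 0.20 (not called) and 1.59 ± 0.20 for E2 (adjusted p = 1.08e-08 at 24 h), and 0.27 ± 0.22 (not called) and 2.04 ± 0.20 for IGF1 (adjusted p = 1.38e-10 at 24 h). Sparc, a collagen-binding glycoprotein, was -0.15 ± 0.11 (not called) and 1.82 ± 0.11 for E2, and 0.47 ± 0.12 and 1.42 ± 0.11 for IGF1. Tnc, for tenascin C, a glycoprotein of remodelling tissue, was -0.43 ± 0.22 (not called) and 0.79 ± 0.22 for E2, and 0.65 ± 0.24 and 0.73 ± 0.22 for IGF1; the 2 h IGF1 call was lost without any 1 of 4 arrays (adjusted p up to 0.0729, without Ex3aERKO littermate IGF1 2 h replicate 1). Postn, for periostin, fell by 0.65 ± 0.18 at 2 h of E2, was -0.16 ± 0.18 at 24 h of E2 (not called), and rose by 0.87 ± 0.20 and 0.56 ± 0.18 under IGF1, the last not called without ERaUtcKO littermate vehicle replicate 1 (adjusted p = 0.0527). Eln, for elastin, was higher at 2 h of both hormones (0.50 ± 0.10 and 0.42 ± 0.11), and at 24 h it was lower with E2 (-0.28 ± 0.10) and -0.20 ± 0.10 with IGF1, not called; the E2 call was lost without C57 E2 24 h replicate 2 (adjusted p = 0.0505).

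Mmp11, for stromelysin 3, a metalloproteinase of stromal cells, was the one gene of the 4 metalloproteinases lower in all 4 comparisons. It measured 11.93, 11.79 and 12.15 under vehicle in the C57 set, 10.30, 10.57 and 10.44 at 2 h of E2, 10.00, 10.41 and 10.07 at 24 h of E2, 10.47 and 10.32 at 2 h of IGF1 and 10.25, 10.41 and 10.07 at 24 h of IGF1. No treated array reached the vehicle arrays. The pooled differences were -1.54 ± 0.14 and -1.52 ± 0.14 for E2, and -1.61 ± 0.15 and -1.47 ± 0.14 for IGF1, with adjusted p from 7.07e-12 to 9.43e-11. Mmp3, for stromelysin 1, measured 7.51, 7.27 and 8.22 under vehicle, 7.70, 7.25 and 7.67 at 24 h of E2 and 8.48, 9.09 and 8.05 at 24 h of IGF1, so the IGF1 arrays overlapped vehicle in this set. Pooled, Mmp3 fell by 0.51 ± 0.15 at 2 h of E2 and was -0.08 ± 0.15 at 24 h (not called), while under IGF1 it rose by 0.44 ± 0.16 and 0.91 ± 0.15; the 2 h IGF1 call was lost without any 1 of 5 arrays (adjusted p up to 0.0733, without Ex3aERKO littermate IGF1 2 h replicate 1). Mmp14, a membrane-bound collagenase, fell by 0.64 ± 0.17 at 2 h of E2 and was called in no other of the 4. Mmp2, a gelatinase that Mmp14 activates, rose by 0.78 ± 0.21 at 24 h of E2 and by 0.52 ± 0.21 at 24 h of IGF1, the latter lost without any 1 of 11 arrays (adjusted p up to 0.147, without ERaUtcKO littermate vehicle replicate 1).

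The 3 inhibitors of these enzymes differed from each other. Timp3, which stays bound to the matrix, measured 11.49, 11.41 and 11.35 under vehicle in the C57 set, 12.17, 12.25 and 12.13 at 2 h of E2 and 10.24, 10.10 and 9.87 at 24 h of E2, with 11.89 and 12.10 at 2 h of IGF1 and 11.13, 11.05 and 10.92 at 24 h. All 2 h arrays lay above vehicle and all 24 h arrays below it. The pooled values were 0.65 ± 0.09 and -1.23 ± 0.09 for E2 (adjusted p = 1.1e-07 and 1.08e-14), and 0.59 ± 0.10 and -0.41 ± 0.09 for IGF1 (adjusted p = 3.94e-06 and 0.000363). Timp1, a secreted and inducible inhibitor, measured 6.46, 6.16 and 6.34 under vehicle, 7.90, 7.70 and 7.40 at 24 h of E2 and 7.38, 8.45 and 8.02 at 24 h of IGF1. Pooled, it rose by 0.69 ± 0.18 and 1.73 ± 0.18 with E2, and was 0.38 ± 0.20 (not called) and 1.79 ± 0.18 with IGF1. Timp2 was called once, at 24 h of E2 (-0.27 ± 0.07).

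The change from 2 h to 24 h was then tested directly, without the vehicle arrays. From 2 h to 24 h of E2, 28 genes were higher and 6 lower, where 51.2% of all genes were called (27.1% higher, 24.1% lower). Col3a1 (4.05 ± 0.18), Col1a1 (3.95 ± 0.17), Col1a2 (3.77 ± 0.14) and Col6a2 (2.87 ± 0.17) rose furthest. P4ha2 (-2.90 ± 0.14), Timp3 (-1.88 ± 0.09), Plod1 (-1.19 ± 0.10) and Eln (-0.78 ± 0.10) fell furthest. Of the 18 collagen chains, 15 were higher at the later time and 0 lower (Col5a1, Col5a3 and Col8a1 were not called), and of the 5 hydroxylases P4ha2, P4ha3 and Plod1 were lower while P4ha1 and Plod2 were not called. From 2 h to 24 h of IGF1, 16 were higher and 6 lower, where 35.3% of all genes were called (20.1% higher, 15.2% lower). Lum (2.39 ± 0.21), Col3a1 (2.12 ± 0.20), Vcan (2.02 ± 0.18) and Col1a2 (1.86 ± 0.15) led the rises, and Timp3 (-1.0 ± 0.09), P4ha2 (-0.85 ± 0.15), Eln (-0.62 ± 0.11) and P4ha1 (-0.51 ± 0.13) the falls. Of the genes of the fixed list, Lox rose over time under both hormones (1.01 ± 0.10 and 0.60 ± 0.11), as did Mmp3 (0.43 ± 0.14 and 0.46 ± 0.15) and Fn1 (1.69 ± 0.20 and 1.77 ± 0.21); the Mmp3 call for IGF1 was lost without ERaUtcKO littermate IGF1 2 h replicate 2 (adjusted p = 0.0637). Mmp11 differed between the times by 0.02 ± 0.14 for E2 and 0.14 ± 0.15 for IGF1, neither called, and Col6a3 by 0.51 ± 0.16 (called) and -0.04 ± 0.17 (not called). Tnc rose over time under E2 (1.22 ± 0.22) and was 0.08 ± 0.23 under IGF1, not called. Epithelial markers moved with the E2 contrast, where 5 of 6 were higher (median 2.15), and stromal markers too, where 5 of 5 were higher (median 2.06); their part in the matrix values was not tested.

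E2 and IGF1 were also set against each other on their own arrays. At 2 h, 7 genes were higher after E2 than after IGF1 and 20 lower, where 22.0% of all genes were called (9.60% higher, 12.4% lower). The higher ones were led by P4ha2 (2.28 ± 0.15), Plod1 (1.89 ± 0.11), P4ha3 (1.02 ± 0.09) and Col6a3 (0.81 ± 0.17), 3 of which act in collagen hydroxylation. The lower ones were led by Col1a1 (-1.59 ± 0.18), Postn (-1.52 ± 0.19), Col3a1 (-1.49 ± 0.20) and Col15a1 (-1.44 ± 0.12). Col1a2 (-1.04 ± 0.15), Tnc (-1.08 ± 0.23) and Mmp3 (-0.95 ± 0.15) were lower after E2 as well, Lox was higher (0.48 ± 0.11), and Fn1 (-0.37 ± 0.21), Mmp11 (0.07 ± 0.15), Timp1 (0.31 ± 0.19) and Timp3 (0.06 ± 0.09) were not called. All 5 stromal markers measured were also lower after E2 than after IGF1 at 2 h (median -2.41), and their part was not tested.

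At 24 h, 13 genes were higher after E2 and 11 lower, where 28.1% of all genes were called (15.3% higher, 12.9% lower). Col6a2 (1.98 ± 0.17, adjusted p = 2.14e-12), Col6a1 (1.48 ± 0.18), Col6a3 (1.36 ± 0.16) and Lox (0.89 ± 0.10) were the furthest above, so all 3 type VI chains were in this group. Col1a1 and Col1a2 were each 0.88 higher (SE 0.17 and 0.14), and Col3a1 was 0.43 ± 0.18, not called (adjusted p = 0.077). Mmp3 (-0.99 ± 0.14), Timp3 (-0.82 ± 0.09), Postn (-0.72 ± 0.18) and Col14a1 (-0.67 ± 0.13) were the furthest below. Vcan was lower after E2 (-0.48 ± 0.16, adjusted p = 0.0235), a call lost without any 1 of 4 arrays (adjusted p up to 0.0625, without C57 IGF1 24 h replicate 3). Fn1 (-0.45 ± 0.20), Tnc (0.06 ± 0.22), Mmp11 (-0.05 ± 0.14) and Timp1 (-0.06 ± 0.18) were not called. Epithelial markers differed in the same contrast, with 5 of 6 higher after E2 (median 1.63).

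The mean over the 41 genes summarises the module in each of the 25 groups, as a log2 difference from wild-type vehicle of the same set, with the SD over arrays. In the C57 set it was -0.02 ± 0.21 at 2 h of E2, 0.60 ± 0.08 at 24 h of E2, 0.22 ± 0.04 at 2 h of IGF1 (n = 2) and 0.64 ± 0.20 at 24 h of IGF1. In the Ex3aERKO littermates it was -0.12 ± 0.03, 0.77 ± 0.07, 0.22 ± 0.28 and 0.49 ± 0.05 in the same order. In the ERaUtcKO littermates it was 0.10 ± 0.12, 1.03 ± 0.01, 0.25 ± 0.15 (n = 2) and 0.90 ± 0.09. The wild-type vehicle groups, at 0 by construction, had SDs of 0.13, 0.04 (n = 2) and 0.08. All 3 wild types were highest at 24 h and near vehicle at 2 h of E2.

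Ex3aERKO groups lay below their littermates' vehicle in all but 1 case: -0.42 ± 0.19 under vehicle, -0.44 ± 0.15 at 2 h of E2, -0.54 ± 0.06 at 24 h of E2, -0.40 ± 0.29 at 2 h of IGF1 (n = 2 each) and 0.10 ± 0.10 at 24 h of IGF1 (n = 3). The ERaUtcKO groups were at -0.08 ± 0.13, 0.13 ± 0.15, -0.13 ± 0.11, 0.39 ± 0.41 and 0.81 ± 0.04 in that order. In both lines IGF1 for 24 h was the highest group and E2 for 24 h the lowest. Without its replicate 3 the ERaUtcKO IGF1 2 h group consists of the arrays at 0.10 and 0.22. The members did not move as 1 block: the middle 50% of them spanned 0.79 at 2 h of E2 and 1.23 at 24 h of E2 in the C57 set, and 1.28 and 1.38 in the Ex3aERKO littermates. In the ERaUtcKO littermates at 24 h of E2 they spanned 1.71, with Col6a2 highest at 4.60 and Mmp11 lowest at -1.03. Between arrays of the same group, the median SD of a member was 0.15 in C57 vehicle, against 0.11 for all genes, and 0.22 against 0.10 at 2 h of E2. Col1a1 had the largest SD in both, 0.57 and 0.91. In some other groups the members varied less than all genes. The values were 0.08 against 0.10 in Ex3aERKO littermate vehicle (n = 2), 0.11 against 0.14 at 24 h of E2 in these littermates, and 0.11 against 0.13 in ERaUtcKO vehicle. In most groups the members varied more than all genes, though by little in several. Examples were 0.26 against 0.13 at 24 h of IGF1 in the C57 set and 0.22 against 0.14 at 2 h of IGF1 in the Ex3aERKO littermates.

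**Figure D3:**
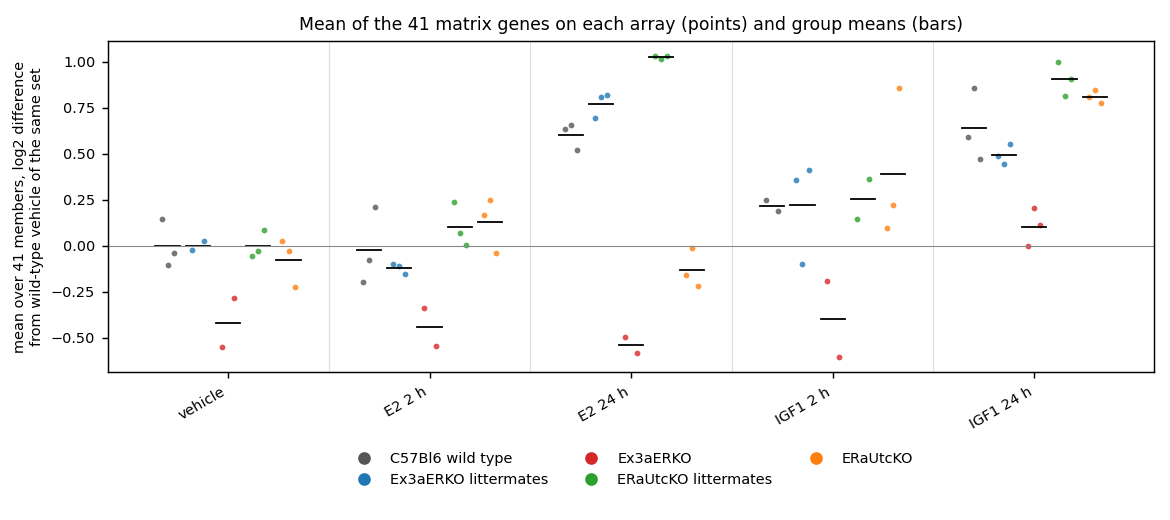
Mean log2 difference of the 41 genes from wild-type vehicle of the same mouse set, for each array (points) and group (bars, mean), with 5 treatments on the horizontal axis and genotypes in colour. E2 for 24 h stands at 0.60, 0.77 and 1.03 in the 3 wild types and at -0.54 and -0.13 in Ex3aERKO and ERaUtcKO, while IGF1 for 24 h stands at 0.10 and 0.81 in these lines.

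Under vehicle, the question is whether loss of Esr1 shifts the matrix genes before any hormone. In Ex3aERKO 8 genes were lower than in littermates and 1 higher, where 2.96% of all genes were called (1.56% higher, 1.40% lower). Mmp14 (-1.86 ± 0.39), Mmp2 (-1.75 ± 0.39), Mmp11 (-1.73 ± 0.34) and Tnc (-1.68 ± 0.32) were the furthest below, and Col6a3 (-1.59 ± 0.36), Plod2 (-1.19 ± 0.17), Col1a2 (-1.04 ± 0.25) and Lox (-1.03 ± 0.21) followed. Thus 3 of the 4 metalloproteinases were among them. Col4a5 was higher (0.84 ± 0.11, adjusted p = 0.000336). Mmp11 measured 10.12 and 11.07 in littermates and 8.82 and 8.91 in Ex3aERKO, and Col6a3 measured 10.03 and 10.06 against 8.28 and 8.64; neither pair of groups overlapped. Lum was further apart, 15.61 and 15.59 against 12.48 and 14.01, but was not called (-2.36 ± 0.71, adjusted p = 0.09); its 2 knockout arrays were far apart. Col1a1 (-0.22 ± 0.24), Col3a1 (-0.46 ± 0.28), Fn1 (-0.45 ± 0.36), Mmp3 (0.00 ± 0.28), Timp1 (0.19 ± 0.28) and Timp3 (0.44 ± 0.17) were not called either. With 2 arrays on each side, single arrays decided most of these calls: the count was 2 to 12 when 1 array was left out, and Plod2 and Col4a5 alone held throughout. The lost calls reached adjusted p of 0.33 (Col1a2) and 0.228 (Col6a3) without Ex3aERKO vehicle replicate 2, and 0.223 (Mmp2), 0.167 (Mmp11) and 0.146 (Mmp14) without littermate vehicle replicate 3. Epithelial markers were higher in the same contrast, 3 of 6 (median 1.14), with averages of 11.20 to 11.28 against 10.20 to 10.56 in littermates; their part in the result was not tested.

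In ERaUtcKO under vehicle, 3 genes were higher and 3 lower, where 4.17% of all genes were called. Postn (1.27 ± 0.28), Bgn (1.19 ± 0.19) and Col4a5 (0.77 ± 0.11) were higher; Mmp11 (-0.78 ± 0.22), Lox (-0.70 ± 0.20) and P4ha1 (-0.38 ± 0.11) were lower. Bgn measured 13.25, 12.94 and 13.02 in littermates and 14.31, 14.31 and 14.17 in ERaUtcKO, without overlap. Lox measured 8.87, 8.79 and 8.50 against 8.17, 7.67 and 8.22, also without overlap. Col4a5, Mmp11 and Lox were thus called in the same direction in both lines. Only Bgn and Col4a5 kept their call without every single array; Lox reached an adjusted p of 0.232 without ERaUtcKO vehicle replicate 2, Mmp11 0.191 without ERaUtcKO vehicle replicate 3, P4ha1 0.284 without littermate vehicle replicate 1 and Postn 0.0888 without the same littermate array. Col1a1 (0.00 ± 0.35), Col1a2 (-0.25 ± 0.30), Col3a1 (-0.11 ± 0.37), Col6a3 (-0.37 ± 0.24), Fn1 (0.44 ± 0.41), Tnc (-1.03 ± 0.38), Mmp3 (-0.11 ± 0.24), Timp1 (0.08 ± 0.32) and Timp3 (0.46 ± 0.14) were not called. After each array was centred on its median, the 3 higher genes stayed called and none was lower.

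E2 for 24 h moved no matrix gene past the threshold in either knockout. In Ex3aERKO limma called 0 of 41 (5 at an unadjusted p under 0.05, where 0% of all genes were called), and in ERaUtcKO also 0 of 41 (0 at an unadjusted p under 0.05, where 0% of all genes were called). Col6a2 measured 7.86 and 7.97 under vehicle and 11.89, 12.05 and 12.40 after E2 for 24 h in the Ex3aERKO littermates, but 7.41 and 7.70 against 7.06 and 7.20 in Ex3aERKO. It measured 7.54, 7.66 and 7.99 under vehicle and 12.38, 12.15 and 12.47 after E2 in the ERaUtcKO littermates, but 7.75, 7.82 and 7.44 against 7.72, 7.73 and 7.86 in ERaUtcKO. The littermate groups were wide apart, the ERaUtcKO groups overlapped, and the treated Ex3aERKO arrays were slightly below vehicle (-0.43 ± 0.24, adjusted p = 0.454). Col1a1 gave 8.78 and 8.96 against 12.04, 12.46 and 12.59 in the Ex3aERKO littermates and 8.62 and 8.68 against 8.52 and 8.36 in Ex3aERKO. In the ERaUtcKO set it gave 8.81, 8.88 and 9.23 against 11.94, 11.71 and 12.00 in littermates and 9.22, 8.99 and 8.72 against 8.54, 8.86 and 8.81 in knockouts. The genes furthest from 0 at 24 h of E2 were Col6a1 (-0.81 ± 0.23, adjusted p = 0.13) and Postn (0.74 ± 0.75) in Ex3aERKO, and Col3a1 (-0.35 ± 0.37) and Col1a1 (-0.24 ± 0.35) in ERaUtcKO. Col1a2, Col3a1, Col6a3, Lox, Fn1, Tnc, Mmp3, Mmp11, Timp1 and Timp3 lay between -0.54 (Col3a1) and 0.15 (Lox and Tnc) in Ex3aERKO. In ERaUtcKO they lay between -0.35 (Col3a1) and 0.10 (Timp3).

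The difference between knockout and littermate responses was tested itself, as an interaction. Each interaction uses the same vehicle arrays as the comparison of knockout and littermates under vehicle, so the results are not independent. For E2 at 24 h, 20 genes differed in Ex3aERKO (17 with the lower response in the knockout, 3 with the higher), where 16.8% of all genes were called (6.34% higher, 10.5% lower). Col6a2 (-4.63 ± 0.33, adjusted p = 1.74e-07), Col6a1 (-3.86 ± 0.32), Col1a1 (-3.70 ± 0.32) and Col3a1 (-2.86 ± 0.38) were the most negative. Col1a2 (-2.76 ± 0.34), Col6a3 (-2.68 ± 0.49), Timp1 (-2.04 ± 0.38) and Fn1 (-1.78 ± 0.49) were also called. The 3 positive ones were Mmp11 (1.46 ± 0.45), Dcn (1.39 ± 0.41) and Timp3 (1.26 ± 0.23), the genes that E2 lowered most in wild types. Lox (-0.01 ± 0.28), Tnc (-0.52 ± 0.43) and Mmp3 (-0.17 ± 0.38) were not called. Mmp11 lost its call without littermate vehicle replicate 3 (adjusted p = 0.2), Dcn without Ex3aERKO vehicle replicate 2 (0.113), Fn1 without littermate vehicle replicate 2 (0.0706), Loxl1 without Ex3aERKO vehicle replicate 3 (0.122), Vcan without Ex3aERKO E2 24 h replicate 1 (0.0801) and Col5a2 without littermate vehicle replicate 3 (0.0677).

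In ERaUtcKO, 31 genes differed in their 24 h E2 response, 27 with the lower and 4 with the higher value in the knockout, where 32.9% of all genes were called (17.3% higher, 15.5% lower). Col6a2 (-4.50 ± 0.41, adjusted p = 2.6e-08), Col6a1 (-3.50 ± 0.42), Col6a3 (-3.25 ± 0.35) and Col1a1 (-3.15 ± 0.50) were the most negative. Col3a1 (-2.65 ± 0.52), Col1a2 (-2.58 ± 0.43), Fn1 (-2.58 ± 0.58), Timp1 (-2.23 ± 0.46) and Tnc (-1.41 ± 0.53) were also called. The positive ones were Mmp11 (0.91 ± 0.31), Timp3 (0.87 ± 0.20), Dcn (0.82 ± 0.15) and Col8a1 (0.58 ± 0.15), while Lox (-0.41 ± 0.28) and Mmp3 (-0.12 ± 0.34) were not called. Calls lost without a single array were Mmp11 (adjusted p up to 0.0929, without ERaUtcKO vehicle replicate 3), Tnc (0.121, without littermate E2 24 h replicate 2), Plod2 (0.0618, without ERaUtcKO vehicle replicate 1), Col5a2 (0.0616, without the same array), Col12a1 (0.0624, without littermate E2 24 h replicate 2) and P4ha3 (0.0717, without littermate E2 24 h replicate 3). Centring each array moved the median interaction of all genes from 0.13 to 0.01 in this comparison and the members' median from -0.80 to -0.92, and it gave 3 positive and 27 negative calls. Of the 28 genes higher and 7 lower in wild types at 24 h of E2, none was called in either knockout. Epithelial markers had lower E2 24 h responses in both knockouts too, 5 of 6 in each line (medians -2.27 and -1.93), and smooth muscle markers in 1 of 7 in Ex3aERKO and 5 of 7 in ERaUtcKO; their part in the matrix result was not tested.

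**Figure D4:**
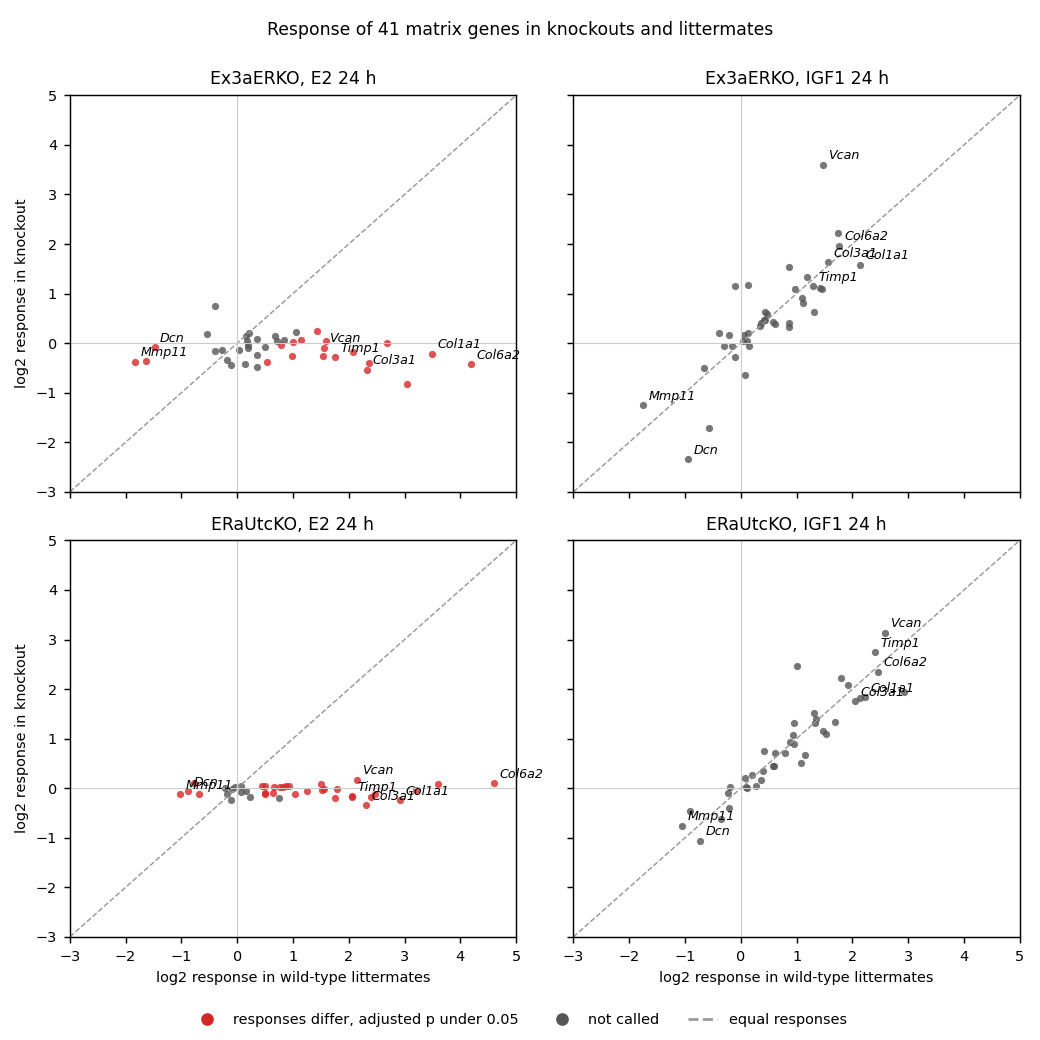
Response of each of the 41 genes in littermates (horizontal, log2 difference from vehicle) against the response in the knockout (vertical), for E2 and IGF1 at 24 h in the Ex3aERKO and ERaUtcKO experiments; red marks an interaction at an adjusted p under 0.05 and the diagonal marks equal responses. For E2 the points lie near 0 on the vertical axis with 20 and 31 in red, and for IGF1 no point is red.

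E2 for 2 h gave little in the knockouts, in the early rises and the early falls alike. In Ex3aERKO limma called 0 of 41 (3 at an unadjusted p under 0.05), where 0.149% of all genes were called (0.116% higher, 0.0332% lower); Postn (2.11 ± 0.75, adjusted p = 0.476) and Lum (-1.20 ± 0.71, adjusted p = 0.839) were furthest from 0. In ERaUtcKO 3 of 41 rose, where 0.491% of all genes were called: P4ha2 (0.88 ± 0.13, adjusted p = 0.000645), Plod2 (0.61 ± 0.14, adjusted p = 0.0498) and P4ha1 (0.53 ± 0.11, adjusted p = 0.0237), all of which hydroxylate collagen. Without single arrays Plod2 reached an adjusted p of 0.221 and P4ha1 0.196, both without ERaUtcKO E2 2 h replicate 1, and P4ha2 kept its call throughout. P4ha2 measured 6.64 and 6.62 under vehicle and 10.27, 10.06 and 11.12 after E2 in the Ex3aERKO littermates, against 6.45 and 6.57, and 7.21 and 6.78, in Ex3aERKO. In the ERaUtcKO littermates it measured 7.30, 7.19 and 7.12, then 11.28, 11.18 and 10.57, and in ERaUtcKO 7.03, 6.97 and 6.89, then 8.03, 7.70 and 7.79. Treated and vehicle arrays did not overlap in any of the 4 genotypes, but the step was far smaller in the knockouts. Col1a1, Col1a2, Col3a1, Col6a3, Lox, Fn1, Tnc, Mmp3, Mmp11, Timp1 and Timp3 lay between -0.65 (Col3a1) and 0.26 (Lox) in Ex3aERKO and between -0.27 (Mmp11) and 0.63 (Fn1) in ERaUtcKO, none of them called.

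The interaction for E2 at 2 h was called for 10 genes in Ex3aERKO (5 higher, 5 lower, where 9.43% of all genes were called, 4.58% higher and 4.85% lower) and 11 in ERaUtcKO (5 higher, 6 lower, where 13.8% of all genes were called, 6.70% higher and 7.08% lower). The lower ones were P4ha2 (-3.37 ± 0.34 and -2.93 ± 0.18 in the 2 lines), Plod1 (-2.33 ± 0.22 and -1.96 ± 0.21), Col6a3 (-2.29 ± 0.49 and -1.83 ± 0.35), Col5a1 (-1.06 ± 0.19 and -0.55 ± 0.14) and P4ha3 (-0.90 ± 0.15 and -0.76 ± 0.13), and in ERaUtcKO also Timp3 (-0.63 ± 0.20). The higher ones were the same 5 genes in both lines: Col3a1 (1.73 ± 0.38 and 1.98 ± 0.52), Col1a2 (1.61 ± 0.34 and 1.48 ± 0.43), Mmp11 (1.60 ± 0.45 and 0.99 ± 0.31), Lox (1.13 ± 0.28 and 1.22 ± 0.28) and Col5a2 (1.06 ± 0.24 and 1.06 ± 0.24). Under vehicle, Mmp11 and Lox were already lower than in littermates in both lines, and Col1a2 and Col6a3 in Ex3aERKO. The part of this lower starting level in the interactions was not tested. Col3a1 after E2 for 2 h was 7.78, 8.55 and 7.92 in the Ex3aERKO littermates, from 10.41 and 10.51 under vehicle, and 9.34 and 9.36 in Ex3aERKO, from 9.87 and 10.13. In the ERaUtcKO set it was 9.33, 8.97 and 8.32 in littermates, from 10.60, 10.27 and 10.99, and 10.64, 11.12 and 10.50 in knockouts, from 10.82, 10.57 and 10.14. The early fall was thus plain in both littermate groups. The Ex3aERKO arrays lay below vehicle without overlap by a smaller step (-0.65, not called), and the ERaUtcKO arrays overlapped vehicle.

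Col1a1 (0.75 ± 0.32 and 0.87 ± 0.50), Fn1 (-0.03 ± 0.49 and 0.22 ± 0.58), Tnc (0.49 ± 0.43 and 0.62 ± 0.53), Mmp3 (0.29 ± 0.38 and 0.75 ± 0.34) and Timp1 (-1.09 ± 0.38 and -0.34 ± 0.46) had no called interaction at 2 h of E2 in Ex3aERKO and ERaUtcKO. Postn had a wide one in Ex3aERKO (3.07 ± 1.01, adjusted p = 0.0665), where its arrays at 2 h of E2 read 15.20 and 12.39. Single arrays ended the calls of Lox (adjusted p = 0.0852 without Ex3aERKO vehicle replicate 2) and Mmp11 (0.204 without littermate vehicle replicate 3) in Ex3aERKO. In ERaUtcKO they ended those of Col1a2 (0.0625 without ERaUtcKO E2 2 h replicate 2), Mmp11 (0.11 without ERaUtcKO vehicle replicate 3) and Timp3 (0.111 without ERaUtcKO E2 2 h replicate 3). Stromal markers moved with these genes: 4 of 5 had a higher E2 2 h response in Ex3aERKO than in littermates (median 2.20) and 5 of 5 in ERaUtcKO (median 0.96), and their part was not tested.

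IGF1 raised matrix genes in both knockouts. At 24 h, 18 of 41 were higher and 3 lower in Ex3aERKO, where 18.6% of all genes were called (11.7% higher, 6.86% lower), and 27 were higher and 4 lower in ERaUtcKO, where 32.4% of all genes were called (16.9% higher, 15.5% lower). Quantile normalization gave 12 higher and 5 lower in Ex3aERKO. Of the 31 genes higher in wild types, 18 were also higher in Ex3aERKO and 27 in ERaUtcKO; of the 5 lower, 3 and 4 were also lower. Every gene called in either knockout at 24 h of IGF1 was thus called in the same direction in wild types. The same share was not computed over all genes called in wild types, so these counts are not read as particular to the matrix genes. The medians of the members were 0.43 in littermates and 0.44 in Ex3aERKO, and 0.93 in littermates and 0.75 in ERaUtcKO. Smooth muscle markers were higher in the same contrasts, 1 of 7 in Ex3aERKO (averages of 13.25 to 14.60 against 12.78 to 13.66 under vehicle) and 7 of 7 in ERaUtcKO (14.87 to 15.38 against 13.43 to 14.03). Neutrophil markers averaged 8.50 to 11.83 against 5.82 to 7.06 in Ex3aERKO, with 1 of 3 higher, and 8.89 to 11.40 against 8.02 to 8.68 in ERaUtcKO, with 0 of 3 called. The part of these markers in the matrix values was not tested.

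Vcan rose furthest in both lines. It measured 8.03 and 8.13 under vehicle and 9.83, 8.56 and 10.24 at 24 h of IGF1 in the Ex3aERKO littermates, and 8.48 and 8.43, then 12.42, 11.54 and 12.22, in Ex3aERKO (3.60 ± 0.33, adjusted p = 2.56e-06). In ERaUtcKO it measured 8.16, 8.33 and 8.34, then 11.11, 11.75 and 11.38 (3.13 ± 0.21, adjusted p = 4.9e-10), and in littermates 8.0, 8.15 and 8.02, then 10.65, 10.78 and 10.47. The knockout arrays at 24 h lay above the littermate arrays at 24 h in both sets. The interactions were 2.14 ± 0.47 (adjusted p = 0.157) and 0.56 ± 0.30 (adjusted p = 0.487), so neither passed.

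Type I, III and VI collagens rose with IGF1 in the knockouts. Col1a1 measured 10.00, 10.31 and 10.38 in Ex3aERKO at 24 h of IGF1, above its vehicle arrays at 8.62 and 8.68 (1.58 ± 0.22, adjusted p = 6.58e-05), and 10.51, 10.81 and 11.11 in ERaUtcKO, above 9.22, 8.99 and 8.72 (1.84 ± 0.35, adjusted p = 0.000299). Its littermates at 24 h read 10.98, 10.66 and 11.40, and 11.53, 10.96 and 11.12. Col3a1 rose by 1.64 ± 0.26 and 1.76 ± 0.37 in Ex3aERKO and ERaUtcKO, Col6a2 by 1.97 ± 0.22 and 2.35 ± 0.29, and Col6a3 by 1.54 ± 0.33 and 2.08 ± 0.24. Col1a2 was 0.64 ± 0.23 in Ex3aERKO (adjusted p = 0.0592) and rose by 1.09 ± 0.30 in ERaUtcKO. Fn1 rose by 2.22 ± 0.33 and 1.94 ± 0.41, Tnc by 1.17 ± 0.29 and 1.32 ± 0.38, and Timp1 by 1.15 ± 0.26 and 2.74 ± 0.32. Mmp3 was 0.41 ± 0.25 in Ex3aERKO (not called) and rose by 2.46 ± 0.24 in ERaUtcKO, where it read 10.13, 9.12 and 9.08 against 7.03, 7.06 and 6.86 under vehicle.

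Dcn, Mmp11 and Timp3 were the 3 genes that fell in both knockouts at 24 h of IGF1. Dcn fell by 2.34 ± 0.28 in Ex3aERKO, from 17.70 and 18.19 to 15.66, 15.33 and 15.83, and by 1.06 ± 0.11 in ERaUtcKO, from 17.94, 17.88 and 17.88 to 17.08, 16.90 and 16.54. Timp3 fell by 1.71 ± 0.15 and 0.61 ± 0.14, and Mmp11 by 1.25 ± 0.31 and 0.76 ± 0.22, while Col8a1 fell in ERaUtcKO only (-0.41 ± 0.11). Lox was -0.50 ± 0.19 and -0.47 ± 0.20, not called (adjusted p = 0.0759 and 0.0775). In Ex3aERKO, leaving out vehicle replicate 2 brought the count of 21 called genes down to 10, with adjusted p of 0.0572 for Col6a3, 0.157 for Tnc, 0.101 for Loxl1, 0.0548 for Mmp11 and 0.113 for P4ha1, with Bgn at 0.54 (adjusted p = 0.301) instead of 0.91 and with Sparc at 0.51 (adjusted p = 0.364) instead of 1.08; without vehicle replicate 3 Sparc was 1.65. In ERaUtcKO 27 of 31 calls held without any single array; Bgn (adjusted p = 0.0525), Tnc (0.087) and Mmp11 (0.0909) were among those lost, without IGF1 24 h replicate 2, IGF1 24 h replicate 3 and vehicle replicate 1 respectively.

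At 2 h of IGF1, 6 genes were higher and 9 lower in Ex3aERKO, where 15.7% of all genes were called (8.61% higher, 7.09% lower), and 21 were higher and 6 lower in ERaUtcKO, where 29.3% of all genes were called (13.1% higher, 16.2% lower). Of the 20 genes higher in wild types, 6 were also higher in Ex3aERKO and 20 in ERaUtcKO. Of the 8 lower, 6 were also lower in each. Again no such share was computed over all genes called in wild types. In Ex3aERKO Postn (2.41 ± 0.75), Col15a1 (1.44 ± 0.20), P4ha1 (1.15 ± 0.18) and P4ha2 (1.11 ± 0.25) rose furthest, and Mmp11 (-1.63 ± 0.34), Dcn (-0.98 ± 0.31), Col1a2 (-0.95 ± 0.25) and Col3a1 (-0.90 ± 0.28) fell furthest. Lox fell as well (-0.69 ± 0.21), whereas Col1a1 (0.42 ± 0.24), Col6a3 (1.01 ± 0.36), Fn1 (-0.17 ± 0.36), Tnc (0.27 ± 0.32), Mmp3 (0.37 ± 0.28), Timp1 (0.36 ± 0.28) and Timp3 (-0.20 ± 0.17) were not called. These Ex3aERKO values rest on 2 arrays a group: 5 of 15 calls held without any single array, and the count was 7 to 16. Without IGF1 2 h replicate 2, Dcn was -0.20 (adjusted p = 0.596), against -1.77 without replicate 1, Bgn was -0.32 instead of -0.80 (adjusted p = 0.495), Col1a2 -0.54 (adjusted p = 0.196) and Plod2 -0.34 (adjusted p = 0.262), and Col3a1 reached an adjusted p of 0.222; without vehicle replicate 3, Lox reached 0.237. Postn reached 0.262 without vehicle replicate 2, P4ha2 0.0741 without IGF1 2 h replicate 1 and Col6a2 (0.75 ± 0.24) 0.259 without vehicle replicate 2.

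In ERaUtcKO, Tnc (1.51 ± 0.38), Col6a2 (1.48 ± 0.29), Col15a1 (1.41 ± 0.12) and Col6a3 (1.36 ± 0.24) rose furthest at 2 h of IGF1, and Mmp11 (-1.54 ± 0.22), Col5a2 (-0.64 ± 0.17), Lox (-0.63 ± 0.20) and Col4a5 (-0.58 ± 0.11) fell furthest. Mmp3 (1.12 ± 0.24), Timp1 (0.92 ± 0.32) and Timp3 (0.84 ± 0.14) rose, and Col1a2 (0.02 ± 0.30), Col3a1 (0.34 ± 0.37) and Fn1 (1.08 ± 0.41) were not called. The array that stood apart bears on this group: Col1a1 read 9.41, 9.71 and 11.54, and its rise of 1.25 ± 0.35 became 0.59 (adjusted p = 0.0983) without replicate 3. Without that array 23 genes were called instead of 27, Tnc was 0.95 (adjusted p = 0.0396), Loxl1 0.78 instead of 1.29 (still called), Postn 0.47 instead of 0.84 (adjusted p = 0.242), Col6a1 0.64 instead of 1.02 (adjusted p = 0.118) and Col5a2 -0.98 instead of -0.64. Timp1 then reached an adjusted p of 0.161, Plod1 0.089 and Sparc 0.0508. Col5a2 was -0.41 (adjusted p = 0.0642) without replicate 1, and Lox reached an adjusted p of 0.0923 without vehicle replicate 3. Markers of macrophages averaged 9.05 to 10.71 and markers of liver 8.23 to 13.30 on the 3 arrays of the group; their part was not tested.

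No IGF1 response of a matrix gene differed between a knockout and its littermates at the threshold. For Ex3aERKO limma called 0 of 41 interactions at 2 h (6 at an unadjusted p under 0.05, smallest adjusted p = 0.441 for Col4a1, where 0% of all genes were called) and 0 of 41 at 24 h (5 at an unadjusted p under 0.05, smallest adjusted p = 0.0998 for Timp3, where 0.0133% of all genes were called). For ERaUtcKO it called 0 of 41 at 2 h (4 at an unadjusted p under 0.05, smallest adjusted p = 0.249 for Mmp3, where 0.511% of all genes were called) and 0 of 41 at 24 h (2 at an unadjusted p under 0.05, smallest adjusted p = 0.122 for Mmp3, where 0.0498% of all genes were called). This does not show that the responses were alike, since the median SE of an interaction was 0.33 at 2 h and 0.31 at 24 h in Ex3aERKO, and 0.29 and 0.27 in ERaUtcKO. At 2 h Postn (1.59 ± 1.01) and Col6a1 (-1.09 ± 0.32) in Ex3aERKO and Mmp3 (1.08 ± 0.36) and Tnc (0.91 ± 0.56) in ERaUtcKO were furthest from 0. At 24 h Timp3 (-1.15 ± 0.22) and Dcn (-1.40 ± 0.40, adjusted p = 0.293) in Ex3aERKO and Mmp3 (1.44 ± 0.34) and Fn1 (-0.99 ± 0.58) in ERaUtcKO stood beside Vcan among the widest. Col1a1 was -0.56 ± 0.30 and -0.39 ± 0.50, Col3a1 0.07 ± 0.36 and -0.28 ± 0.52, Col6a2 0.21 ± 0.31 and -0.11 ± 0.41, Lox 0.16 ± 0.27 and 0.43 ± 0.28, and Mmp11 0.50 ± 0.43 and 0.29 ± 0.31 in the 2 lines. Stromal markers, beside these, rose at 24 h of IGF1 in 4 of 5 in each knockout (medians 1.12 and 1.04), and 4 of 5 rose in wild types (median 0.37).

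The size of the wild-type response also differed between mouse sets for some members. For E2 at 24 h, 10 of 41 differed, where 16.2% of all genes did: Col5a3, Col6a1, Col6a2, Col16a1, Dcn, Fn1, Sparc, Mmp2, Mmp14 and Timp3. Fn1 rose by 0.72 in C57, 1.53 in the Ex3aERKO littermates and 2.47 in the ERaUtcKO littermates, and Col6a1 by 1.93, 3.05 and 3.59. The order of the sets was the same for both genes. For IGF1 at 24 h, Fn1 (1.39, 1.75 and 2.93) and Col6a1 (0.89, 1.12 and 2.13) differed, 2 of 41, where 5.56% of all genes did. P4ha1 was the single member that differed at 2 h of E2 (-0.26, 0.95 and 0.33, where 2.07% of all genes differed) and at 2 h of IGF1 (0.59, 1.46 and 1.01, where 1.14% did). Mouse set and anything else that differed between the sets cannot be told apart.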

How the data were processed

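Total RNA from whole uterus (300 ng, amplified with the Affymetrix WT Plus kit per the labels' protocols) was measured on 68 arrays; their number limits the precision. The authors deposited 1 table of 72688 probe sets on the log2 scale; its summarisation and normalization are not given in the sources used here. Probe sets with exactly 1 symbol (30604 of 32750 annotated, symbols updated through RefSeq) gave 30142 genes, with the brightest probe set kept for 355 genes that had several. limma 3.58.1 in R 4.3.3 (lmFit, eBayes) fitted wild types with mouse set as a term (42 arrays, 35 residual degrees of freedom). It also fitted each knockout line with its littermates (25 and 29 arrays, 15 and 19 residual degrees of freedom) with interactions. For the differences between sets, a further model gave each wild-type group its own mean (42 arrays, 27 residual degrees of freedom). A moderated F test on that model compared the responses of the 3 sets. P-values were adjusted by Benjamini-Hochberg over all genes in each of 30 comparisons, with a threshold of 0.05, and the fits were tested on simulated data.

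The members and the lists were chosen with earlier results of these data known. Named genes are, for each comparison, the 4 called members that rose most and the 4 that fell most, or the 2 furthest from 0 where none was called. A fixed list of Col1a1, Col1a2, Col3a1, Col6a3, Lox, Fn1, Tnc, Mmp3, Mmp11, Timp1 and Timp3 is reported as well, though not every gene of it in every comparison. Other members are named to account for a role group or an array that changes a call. Alternatives were quantile normalization, median centring, a filter on dim genes, the mean of a gene's probe sets, a replicate block, each mouse set alone, and leaving out each array. Promoter sequences and their build are RefSeq's.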

Additional observations from a re-analysis of the deposited data

Results flagged for a closer look

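The E2 responses of matrix genes differed between knockouts and littermates by the test of the difference itself. At 2 h this held for 10 members in Ex3aERKO (9.43% of all genes), with P4ha2 at -3.37 and Col3a1 at 1.73, and for 11 in ERaUtcKO (13.8% of all genes), with P4ha2 at -2.93 and Col3a1 at 1.98. At 24 h it held for 20 members in Ex3aERKO (16.8% of all genes), with Col6a2 at -4.63 and Mmp11 at 1.46, and for 31 in ERaUtcKO (32.9% of all genes), with Col6a2 at -4.50 and Mmp11 at 0.91.

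The wild-type response to E2 at 24 h differed between the 3 mouse sets for 10 of 41 members, where it did for 16.2% of all genes. The adjusted p was 0.00149 for Col6a2, 0.00284 for Col6a1, 0.00351 for Timp3, 0.00837 for Fn1, 0.0113 for Mmp2, 0.0121 for Col16a1, 0.0215 for Dcn, 0.0251 for Col5a3, 0.0401 for Sparc and 0.0413 for Mmp14 (limma, with a term for set by treatment). Col6a2 rose by 3.00, 4.20 and 4.60 in the C57 set, the Ex3aERKO littermates and the ERaUtcKO littermates, and Mmp2 differed from vehicle by 0.09, 0.36 and 1.75. P4ha1 differed between sets at 2 h of E2 (adjusted p = 0.000239) and at 2 h of IGF1 (adjusted p = 0.039), where 2.07% and 1.14% of all genes did. Col6a1 and Fn1 differed at 24 h of IGF1 (adjusted p = 0.0368 and 0.0321), where 5.56% of all genes did. No array was tested as an outlier, since all groups held 2 or 3 arrays.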

How the results depend on the processing

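No called direction turned under quantile normalization, median centring, the dim filter, the mean of probe sets or the replicate block. Quantile normalization gave 6 members for the set difference at 24 h of E2, 0 for that at 24 h of IGF1 and 1 for E2 at 2 h in Ex3aERKO. Median centring gave 2, 0 and 4 for the set differences at 2 h of E2, 2 h of IGF1 and 24 h of IGF1, and 3 for ERaUtcKO vehicle. Centring raised the share of calls that were higher over all genes from 43.1% to 60.2% at 2 h of E2, from 43.7% to 56.5% at 24 h, from 47.1% to 63.4% at 2 h of IGF1 and from 47.2% to 60.9% at 24 h. It lowered that share from 37.7% to 24.2% (Ex3aERKO) and from 52.7% to 34.3% (ERaUtcKO) for the interaction with E2 at 24 h, where it moved the median of all genes from 0.10 to -0.02 and from 0.13 to 0.01; at 2 h it moved that of the ERaUtcKO interaction from 0.07 to -0.04. Same-numbered deviations from the group mean correlated above 0.1 in 8 of 26, 5 of 84 and 16 of 126 pairs in the C57, Ex3aERKO and ERaUtcKO mouse sets. The correlations ran from -0.59 to 0.50 in the C57 set. Arrays of different numbers were not compared in this way, so whether replicate numbers pair the arrays was not settled. The replicate block gave 0 and 1 for the set differences at 2 h and 24 h of IGF1 and 3 for ERaUtcKO vehicle.

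The C57 set alone gave 16 members at 2 h of IGF1 and 12 for E2 against IGF1 at 24 h. The Ex3aERKO littermates alone gave 22 at 24 h of E2 and 20 at 24 h of IGF1. The ERaUtcKO littermates alone gave 18 at 2 h of IGF1, and 16 and 15 for E2 against IGF1 at 2 h and 24 h. No share over all genes is given for these single-set fits. The counts are therefore not read as particular to the matrix genes. Where the pooled value or a set's own was called, the 2 had opposite signs for P4ha1 at 2 h of E2 (-0.26), Mmp14 at 24 h of E2 (-0.47) and P4ha1 from 2 h to 24 h of E2 (0.41) in C57, Mmp2 at 24 h of IGF1 (-0.11) and Vcan for E2 against IGF1 at 24 h (0.0906) in the Ex3aERKO littermates, and Col15a1 from 2 h to 24 h of IGF1 (0.32) in the ERaUtcKO littermates (values in the set alone); other members changed sign between sets with neither called. The cause was not tested. Each set alone held 14 arrays, against 42 in the pooled fit.

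Leaving out 1 array gave 1 to 3, 0 to 2 and 0 to 7 members for the set differences at 2 h of E2, 2 h of IGF1 and 24 h of IGF1. In Ex3aERKO it gave 2 to 12 under vehicle, 0 to 1 at 2 h of E2, 7 to 16 at 2 h of IGF1, 10 to 22 at 24 h of IGF1 and 0 to 2 for the IGF1 24 h interaction. In ERaUtcKO it gave 3 to 10 under vehicle, 1 to 3 at 2 h of E2 and 0 to 1 for the IGF1 24 h interaction. Groups of 2 arrays, vehicle taken at 24 h only, the unstated normalization and the unstated route of IGF1 in each mouse limit all of these values.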

Other observations

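Genes beside the module moved too; these 7 lists of 107 genes were chosen with earlier results known. Of 20 genes of collagen processing and secretion, 15 were higher and 3 lower at 24 h of E2 in wild types, where 24.5% of all genes were higher and 31.7% lower, and 14 higher and 4 lower at 24 h of IGF1, where 19.3% and 21.6% were. Serpinh1, the collagen chaperone, rose by 2.34 ± 0.18 and 1.97 ± 0.18, and Sparcl1 fell by 1.68 at 24 h of E2. At 24 h of IGF1, 10 were higher and 2 lower in Ex3aERKO (Serpinh1 3.15), where 11.7% and 6.86% of all genes were, and 13 higher and 2 lower in ERaUtcKO (Pcolce, a procollagen proteinase enhancer, 2.47), where 16.9% and 15.5% were. After E2 none of the measured genes of these lists was called in Ex3aERKO. Over all genes, 0.149% were called there at 2 h and 0% at 24 h. Lamb1, a laminin chain, was the one called in ERaUtcKO (0.76 ± 0.15 at 2 h, adjusted p = 0.0141 by limma). Over all genes, 0.491% were called in that line at 2 h and 0% at 24 h.

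The other lists were mixed in wild types, and several of their shares lie near those of all genes: 17.2% higher and 22.8% lower at 2 h of E2, 24.5% and 31.7% at 24 h of E2, and 16.9% and 19.0% at 2 h of IGF1. Among 17 other metalloproteinase and ADAMTS genes, 6 were higher and 5 lower at 2 h of E2, where Adamts4, an aggrecanase, rose by 5.72 ± 0.27 (limma, adjusted p = 1.67e-20) and Adamts5, of the same class, fell by 1.44. Among 17 laminin and basement membrane genes, 4 were higher and 6 lower at 2 h of E2, with Lamb1 at 2.77 ± 0.10 and Lama4 at -1.61. Among 9 hyaluronan genes, 2 were higher and 5 lower, with Has1 at 1.80 and Has2 at -1.05, both hyaluronan synthases. Among 16 elastic fibre genes, 3 were higher and 8 lower, with Fbln2 at 1.84. Among 8 small leucine-rich proteoglycans, 1 was higher and 2 lower at 24 h of E2, with Prelp at -2.42. Among 11 collagen receptors, 5 were higher and 3 lower at 2 h of IGF1, with Itga5, a fibronectin receptor subunit, at 2.92. The 2 h IGF1 response of Itga5 was 1.42 higher in ERaUtcKO than in littermates, the one called IGF1 interaction among these lists. That value includes the ERaUtcKO array that stood apart, and no value without it is given.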
